A study of Mus musculus with 10 samples.

Results

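The alpha beta T cell receptor segments are the gene pieces from which the receptor of conventional T cells is assembled, and their transcripts were read here in T cells from mouse melanomas. Members were the rows of the deposited normalized count table whose symbol starts with Trav, Traj, Trac, Trbv, Trbj or Trbc and whose value reached 10 normalized counts in 2 or more of the 10 libraries. The table has 48825 rows, of which 240 carry these name starts and 118 passed the minimum. Passing were 61 of 128 Trav rows (alpha variable segments), 19 of 60 Traj rows (alpha joining segments) and the 1 Trac row (alpha constant region). For the beta chain, 22 of 35 Trbv rows, 13 of 14 Trbj rows and both Trbc rows passed. The other 122 rows stayed below the minimum and are not members.

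Mice of every group carried BrafCA and Tyr::CreER, in which a drug-inducible recombinase driven by the tyrosinase promoter of pigment cells acts on a Braf allele after local induction of the tumor. The labels give the genotype as wild type in a separate field, and an age is not given in the sources used here. The Control group, on normal chow and without the antibody, has 3 libraries. The CSF1Ri group (2 libraries) ate chow holding PLX6134, an inhibitor of CSF1R, at 600 mg/kg. The CD40 group (3 libraries) was injected with the antibody FGK4.5 (10 mg/kg, 10 doses at most, 3 days apart). The CSF1Ri+CD40 group (2 libraries) had both agents. CSF1R is the receptor that macrophages need to survive, and CD40 is an activating receptor of antigen-presenting cells. Treatment began 30 days after induction and lasted up to 30 days, and each library pooled at least 3 tumors. The tests below therefore measure the spread between pools. The titles name T cells while a tissue field names tumor-associated macrophages. The 8 T cell markers (Cd3d, Cd3e, Cd3g, Cd247, Cd2, Cd5, Cd28 and Lck) summed to between 75356 and 125529 normalized counts, and the 6 macrophage markers (Csf1r, Adgre1, Cd68, Lyz2, C1qa and C1qb) to between 500 and 2437.

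A T cell receptor chain is built during development in the thymus by joining 1 variable segment to 1 joining segment, with a diversity segment between them in the beta chain, and splicing the result to a constant region. Each clone carries its own pair of rearranged chains, so the level of a variable segment in bulk RNA is the sum over all clones that use it. The joined stretch, which reads across the segment ends, makes most of the contact with the antigen peptide. Reads from bulk RNA counted per gene do not tell which variable and joining segments stood in the same transcript.

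The sequence ends that meet in the joined stretch are shown for the segments on which the results turn. For variable segments these are the last 60 bases of the GENCODE vM21 transcript, 5′ to 3′, with the codon of the conserved cysteine that opens the joined stretch in capitals. The codon was located as the TGT of the last TGTGC or, where there was none, the TGC of the last TTCTGC within the final 30 bases, which found it in 19 of 22 Trbv and 53 of 61 Trav members. Trbv14 is at chr6:41135145-41135616, Trbv17 at chr6:41163062-41163556, Trbv19 at chr6:41178375-41179048, Trbv3 at chr6:41048290-41048828, Trav1 at chr14:52427928-52428876 and Trav5-1 at chr14:52622566-52623082, all on the plus strand of GRCm38.
Trbv14: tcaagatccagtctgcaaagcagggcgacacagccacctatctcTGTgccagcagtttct
Trbv17: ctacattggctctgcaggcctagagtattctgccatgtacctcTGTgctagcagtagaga
Trbv19: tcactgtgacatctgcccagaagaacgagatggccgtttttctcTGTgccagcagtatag
Trbv3: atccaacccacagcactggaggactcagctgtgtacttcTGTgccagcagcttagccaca
Trav1: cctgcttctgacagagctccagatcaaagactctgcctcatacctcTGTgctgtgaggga
Trav5-1: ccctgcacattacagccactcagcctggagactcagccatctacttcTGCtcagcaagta

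Joining segments are short, and whole sequences are shown for the 3 Trbj members with the highest mean counts, of which Trbj2-6 is annotated as a pseudogene. Also shown are 1 leading Traj member and Traj18, the joining segment of invariant natural killer T cells. Capitals mark 4 codons for phenylalanine, glycine, any residue and glycine (the F-G-any-G motif), which is the conserved motif that closes the joined stretch. It was searched on both strands. Trbj2-1 is at chr6:41542754-41542803, Trbj2-6 at chr6:41543598-41543645, Trbj2-7 at chr6:41543810-41543856, Traj18 at chr14:54200777-54200842 and Traj27 at chr14:54192303-54192361, all on the plus strand of GRCm38.
Trbj2-1: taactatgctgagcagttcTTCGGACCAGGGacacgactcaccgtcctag
Trbj2-6: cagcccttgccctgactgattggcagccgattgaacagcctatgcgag
Trbj2-7: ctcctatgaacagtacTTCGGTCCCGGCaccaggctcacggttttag
Traj18: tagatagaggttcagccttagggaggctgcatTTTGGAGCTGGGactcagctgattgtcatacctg
Traj27: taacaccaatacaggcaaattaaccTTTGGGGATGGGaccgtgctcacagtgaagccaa
The motif was found on the sense strand in 24 of the 32 joining members (75%) and in 54 of all 74 joining rows (73.0%), and on the other strand in none of the 74. Members without it were Traj8, Traj19, Traj20, Traj33 and Traj41 on the alpha side and Trbj1-6, Trbj1-7 and Trbj2-6 on the beta side.

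In counts not divided by length, the constant regions held more than the variable and joining segments together. Trac, which encodes the constant part of every alpha chain, held 15963, 21307 and 16021 normalized counts in Control libraries 1, 2 and 3. The value was 22214 and 21369 in CSF1Ri libraries 1 and 6, 21587, 27986 and 16195 in CD40 libraries 1, 2 and 3, and 22928 and 22558 in CSF1Ri+CD40 libraries 1 and 3. Both CSF1Ri libraries and both CSF1Ri+CD40 libraries lay above every Control library, while the CD40 libraries spanned from near the lowest Control value to the highest value of all 10. The log2 fold change over Control was 0.31 ± 0.24 (SE) for CSF1Ri, 0.28 ± 0.21 for CD40 and 0.37 ± 0.24 for CSF1Ri+CD40, with limma adjusted p of 1, 0.856 and 0.925. With values scaled to equal Cd3 transcripts, the 3 fold changes of Trac became -0.10, -0.01 and -0.02, while the median of all genes shifted by -0.39, -0.28 and -0.38. Fewer T cells and less receptor RNA per T cell cannot be told apart in these bulk libraries.

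Trbc1 and Trbc2 encode the 2 nearly alike constant regions of the beta chain, each with its own cluster of diversity and joining segments. Trbc1 held 6324, 9045 and 6465 normalized counts in Control, 8047 and 10160 in CSF1Ri, 9479, 10393 and 6230 in CD40, and 6897 and 7001 in CSF1Ri+CD40. Trbc2 held 10368, 13055 and 10522 in Control, 13004 and 12710 in CSF1Ri, 12736, 15307 and 9782 in CD40, and 13204 and 11877 in CSF1Ri+CD40. For both genes the groups overlapped Control, and no fold change over Control passed (limma adjusted p from 0.889 to 1 for Trbc1 and from 0.908 to 1 for Trbc2). Only 46.8% of the 75-base stretches of Trbc1 and 62.3% of those of Trbc2 occur in no other transcript, so their split depends on how shared reads were counted. Per kilobase of exon, Trbc1 made up 37.1% ± 1.68 (SD, n = 3) of the beta constant signal in Control, 39.4% ± 4.32 (n = 2) in CSF1Ri, 38.8% ± 1.86 (n = 3) in CD40 and 33.9% ± 1.92 (n = 2) in CSF1Ri+CD40, and no difference passed in an exact permutation test over all 25200 assignments of the libraries to groups (p = 0.1865, adjusted p = 0.7227 over 31 library-level values).

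The ratio of the alpha to the beta constant regions was highest in the 2 libraries of the combination. With each gene's counts divided by its exon length, the log2 ratio of Trac to summed Trbc1 and Trbc2 was -0.46 ± 0.02 (SD, n = 3) in Control, -0.40 ± 0.12 (n = 2) in CSF1Ri, -0.36 ± 0.08 (n = 3) in CD40 and -0.17 ± 0.05 (n = 2) in CSF1Ri+CD40. The CSF1Ri+CD40 libraries, at -0.21 and -0.14, were the highest of the 10, next to -0.27 in CD40 library 2. The exact permutation test gave p = 0.03778, and 0.3904 after adjustment over the 31 values, so the difference did not pass.

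**Figure D1:**
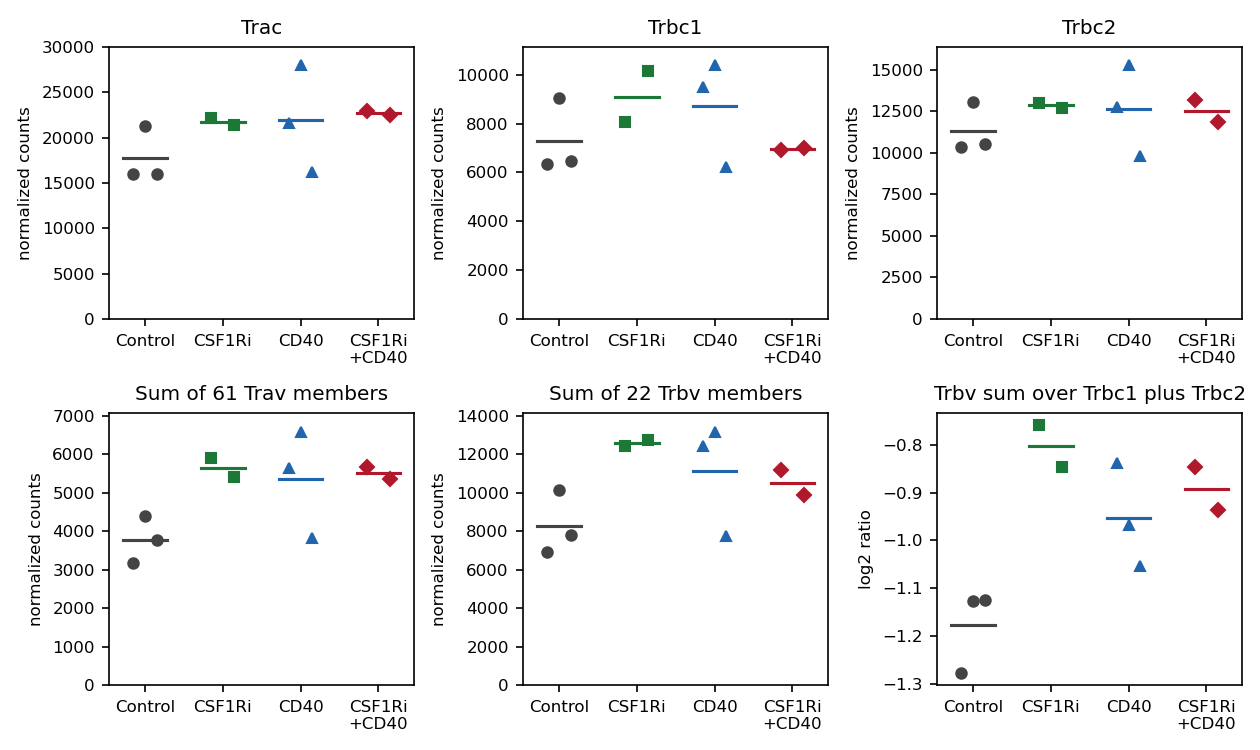
Normalized counts of Trac, Trbc1 and Trbc2 and of the summed Trav and Trbv members, and the log2 ratio of summed Trbv members to Trbc1 plus Trbc2, by group on the horizontal axis. Points are libraries (Control 3, CSF1Ri 2, CD40 3, CSF1Ri+CD40 2) and lines are group means; all 7 treated libraries lie above the 3 Control libraries in the ratio, whose axis does not start at 0.

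Beta variable segments stood higher relative to the beta constant regions in every treated library than in any Control library. The 22 Trbv members summed to 6887, 10115 and 7786 normalized counts in Control, to 12441 and 12718 in CSF1Ri, to 12427, 13147 and 7717 in CD40, and to 11183 and 9859 in CSF1Ri+CD40. As a log2 ratio to Trbc1 plus Trbc2, in counts not divided by length, this was -1.18 ± 0.09 (SD, n = 3) in Control, -0.80 ± 0.06 (n = 2) in CSF1Ri, -0.95 ± 0.11 (n = 3) in CD40 and -0.89 ± 0.06 (n = 2) in CSF1Ri+CD40. All 7 treated libraries lay above all 3 Control libraries. The exact permutation p was 0.01381 and the adjusted p 0.214, so this too missed the threshold. Without CD40 library 3, whose ratio of -1.05 was the closest to Control, the adjusted p was 0.0738.

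The 61 Trav members summed to 3170, 4394 and 3774 normalized counts in Control, 5894 and 5405 in CSF1Ri, 5643, 6569 and 3827 in CD40, and 5678 and 5365 in CSF1Ri+CD40. Relative to Trac, again in undivided counts, the log2 ratio was -2.23 ± 0.13 in Control (SD, n = 3), -1.95 ± 0.05 in CSF1Ri (n = 2), -2.04 ± 0.09 in CD40 (n = 3) and -2.04 ± 0.04 in CSF1Ri+CD40 (n = 2). Here 6 of 7 treated libraries lay above all Control libraries, with an exact permutation p of 0.06889 and an adjusted p of 0.4271. The log2 ratio of Trac to Trdc, the delta constant region, each per exon length, ran from 3.06 to 5.56, and no difference between groups passed (exact permutation p = 0.2322, adjusted p = 0.7243).

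None of the 118 members passed in any of the 8 limma contrasts at an adjusted p under 0.05, over 15716 genes tested. The background was 0.00636% of all genes called in CSF1Ri over Control and the same share in CD40 over Control, which is 1 gene in each, and 0% in the other 6 contrasts. At an unadjusted p under 0.05 the members numbered 7 for CSF1Ri over Control, where 4.08% of all genes were under it, 2 for CD40 over Control (6.39% of all genes) and 5 for CSF1Ri+CD40 over Control (5.4%). They numbered 5 for CSF1Ri+CD40 over CD40 (4.96%), 2 for CSF1Ri+CD40 over CSF1Ri (3.58%) and 4 for the interaction (4.17%). For the averaged effects they numbered 4 for CSF1Ri (4.6%) and 1 for CD40 (4.67%).

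Variable segments of both chains had mostly positive fold changes over Control in all 3 comparisons, and alpha joining segments had them in 1, CD40 over Control. Over Control, CSF1Ri gave a positive fold change in 90 of 118 members (51.1% of all genes), and the median of their log2 fold changes was 0.50 beside 0.02 over all genes tested. The medians by class were 0.61 for Trav (53 of 61 positive), 0.62 for Trbv (19 of 22), 0.07 for Trbj (7 of 13) and -0.41 for Traj (8 of 19). For CD40 over Control, 92 of 118 members were positive, with a median of 0.28 beside -0.01 over all genes (49% positive). Its medians were 0.37 for Trav, 0.28 for Trbv, 0.10 for Trbj (8 of 13) and 0.13 for Traj (12 of 19 positive). For CSF1Ri+CD40 over Control, 74 of 118 were positive, with a median of 0.20 beside -0.002 over all genes (49.3% positive). Its medians were 0.52 for Trav, 0.20 for Trbv, -0.33 for Trbj and -0.58 for Traj (5 of 19 positive). These comparisons share the 3 Control libraries. When values were scaled to equal Cd3 transcripts, the member medians became 0.09 for CSF1Ri, -0.002 for CD40 and -0.15 for CSF1Ri+CD40, beside -0.38, -0.29 and -0.38 over all genes. The members' median thus lay above that of all genes by 0.47, 0.29 and 0.23 under this scaling and by 0.49, 0.29 and 0.21 without it. Single libraries moved these medians. Without Control library 1 the CSF1Ri median was 0.30, and 1 of 118 members in place of 7 was under an unadjusted limma p of 0.05. Over all genes 400 of 15484 were under it there, in place of 641 of 15716. Without CD40 library 3 the CD40 median was 0.43, with 11 of 111 members under it in place of 2 of 118. Over all genes 2039 of 15441 were under it there, in place of 1005 of 15716. The median of the combination was 0.33 without Control library 2 and 0.36 without CSF1Ri+CD40 library 3.

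T cell markers were also higher in the treated libraries than in Control, except in CD40 library 3. The 8 markers summed to 75356 to 92736 normalized counts in Control, 104474 to 116936 in CSF1Ri, 82692 to 125529 in CD40 and 105817 to 111512 in CSF1Ri+CD40. The 4 erythroid markers summed to 2855 to 15721 in Control, 1288 to 2695 in CSF1Ri, 811 to 1171 in CD40 and 13 to 474 in CSF1Ri+CD40, and no marker of either list was at 0 in every library. The 4 Y-linked genes Ddx3y, Eif2s3y, Kdm5d and Uty summed to 2438 in Control library 1, 1569 in CD40 library 2 and 3072 in CD40 library 3, and to at most 1 in the other 7 libraries. Of the 61 Trav members, 24 had their lowest value in Control library 1 and 14 in CD40 library 3, and of the 22 Trbv members 9 and 5. The part of these differences in the member values was not tested.

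Of the 118 members, 35 had both CSF1Ri libraries above all Control libraries (11.6% of all genes did) and 5 had both below (10.3%). The 35 included 12 of 22 Trbv members, among them Trbv1, Trbv3, Trbv13-1, Trbv19 and Trbv20, and 20 of 61 Trav members, among them Trav1, Trav3-3 and Trav5-4, but none of the 19 Traj members. For CSF1Ri+CD40 over Control 27 members were above (10.6% of all genes) and 8 below (9.6%). For CD40 over Control 7 were above (4.19%) and 1, Trbj2-2, below (4.91%). The CSF1Ri+CD40 libraries lay above the CD40 libraries in 12 members (8.19%) and below in 13 (6.84%), and above the CSF1Ri libraries in 16 (16.5%) and below in 28 (16.8%).

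**Figure D2:**
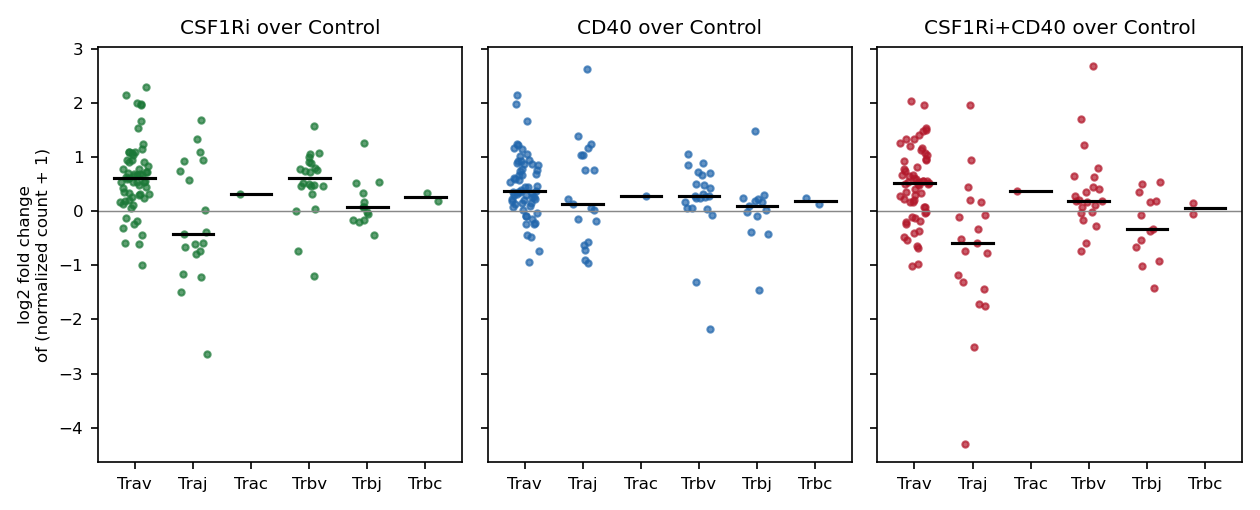
Log2 fold change over Control, on the log2(normalized count + 1) scale, of each of the 118 members by segment class for CSF1Ri, CD40 and CSF1Ri+CD40. Each point is a member and black lines are class medians, which for Trav are 0.61, 0.37 and 0.52; no point passed the adjusted threshold.

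Beta variable use was led on average by 6 members. Values per kilobase of exon were turned into shares of the class within a library, so that segments of different length can be set side by side. The mean share over 10 libraries was 10.4% for Trbv1, 10.3% for Trbv3, 9.85% for Trbv19, 9.81% for Trbv13-3, 9.64% for Trbv13-1 and 8.59% for Trbv13-2. Together these 6 made up 58.6% of the class. The next, Trbv20 and Trbv16, followed at 6.48% and 6.17%. Shares over the libraries ran from 7.23% to 15.1% for Trbv1, 6.50% to 18.0% for Trbv3 and 6.15% to 10.7% for Trbv13-2, so these ranges overlapped. The leading 6 were not tested against each other.

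The level of Trbv19 was 1034, 1580 and 1039 normalized counts in Control, 1803 and 2214 in CSF1Ri, 1610, 1591 and 1118 in CD40, and 1277 and 1083 in CSF1Ri+CD40. It had the smallest p among members for CSF1Ri over Control, at a log2 fold change of 0.74 ± 0.28 (SE; adjusted p = 1), and its interaction term was -1.02 ± 0.39 (adjusted p = 0.991). Both CSF1Ri libraries lay above all others. Trbv3 held 574, 1047 and 937 in Control, 1958 and 1380 in CSF1Ri, 2485, 1186 and 841 in CD40, and 1185 and 738 in CSF1Ri+CD40, with CD40 library 1 the highest. Trbv1 held 895, 831 and 801 in Control, 1087 and 1351 in CSF1Ri, 1494, 2056 and 791 in CD40, and 848 and 1082 in CSF1Ri+CD40. In CD40 library 3, Trbv1 and Trbv3 were within or below the Control range, unlike in the other 2 CD40 libraries. The most even of the better-read Trbv members was Trbv13-2, with a coefficient of variation of 17.4% over the libraries, followed by Trbv20 (21.9%) and Trbv15 (26.6%).

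**Figure D3:**
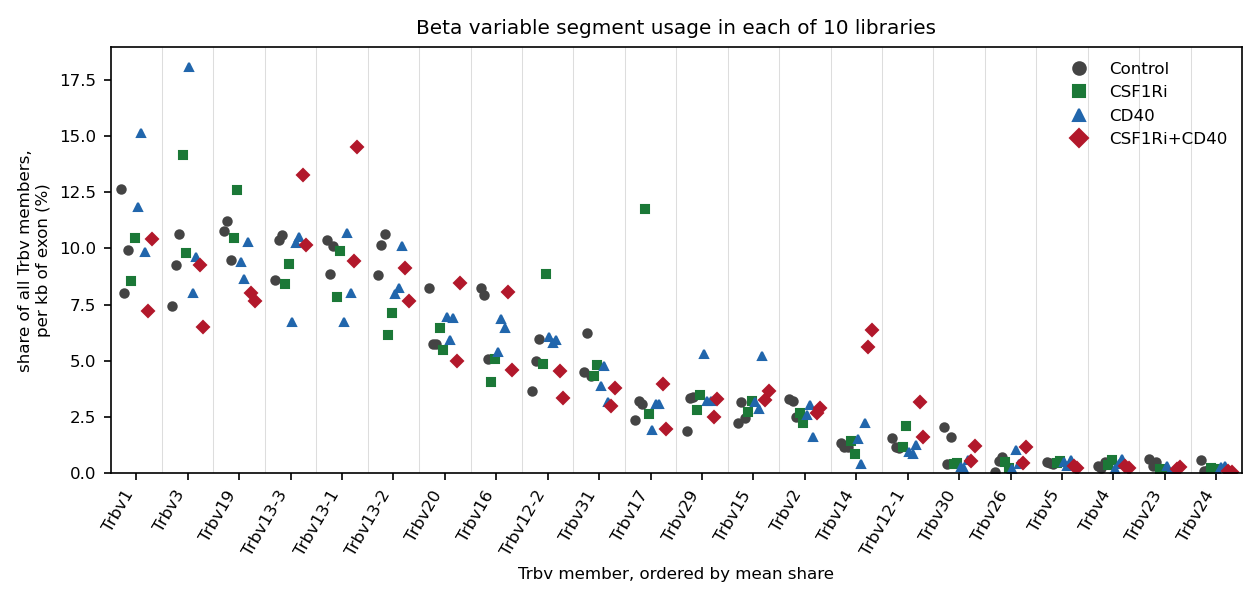
Share of each of the 22 Trbv members in all Trbv members, per kilobase of exon, in each of the 10 libraries; colour and shape give the group and members are ordered by their mean share. Trbv14 reaches 5.63% and 6.36% in the CSF1Ri+CD40 libraries and Trbv17 reaches 11.8% in CSF1Ri library 1.

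Trbv14 was highest in both CSF1Ri+CD40 libraries. It held 83, 106 and 83 normalized counts in Control, 161 and 96 in CSF1Ri, 171, 52 and 159 in CD40, and 583 and 584 in CSF1Ri+CD40. The lowest value of the combination was above the highest of the 8 other libraries. The log2 fold change of CSF1Ri+CD40 was 2.68 ± 0.57 (SE) over Control (adjusted p = 0.483), 2.37 ± 0.57 over CD40 (adjusted p = 0.749) and 2.22 ± 0.63 over CSF1Ri (adjusted p = 1). Among members it had the smallest p in each of these 3 contrasts and in both averaged effects. The interaction term was 1.90 ± 0.81 (adjusted p = 0.991). Its share of Trbv was 1.22% ± 0.10 in Control (SD, n = 3), 1.14% ± 0.42 in CSF1Ri (n = 2), 1.40% ± 0.91 in CD40 (n = 3) and 5.99% ± 0.51 in CSF1Ri+CD40 (n = 2). All 75-base stretches of its transcript were found in no other transcript.

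Trav1 was likewise highest in both CSF1Ri+CD40 libraries. It is the mouse counterpart of the alpha variable segment used by mucosal-associated invariant T cells, which pair it with Traj33 and recognise vitamin B metabolites on MR1. Its level was 144, 152 and 168 normalized counts in Control, 212 and 203 in CSF1Ri, 123, 144 and 125 in CD40, and 300 and 303 in CSF1Ri+CD40. The combination was above all other libraries, CSF1Ri above Control, and CD40 at or below Control. The log2 fold change of the combination was 0.96 ± 0.39 over Control (adjusted p = 0.914) and 1.20 ± 0.39 over CD40 (adjusted p = 0.908). As a share of Trav it was 4.32% ± 0.64 in Control (SD, n = 3), 3.83% ± 0.13 in CSF1Ri (n = 2), 2.64% ± 0.65 in CD40 (n = 3) and 5.68% ± 0.25 in CSF1Ri+CD40 (n = 2). The exact permutation p of 0.005238 was the smallest of the 31 library-level values, and the adjusted p was 0.1624. Traj33 itself was listed at 0 to 13 normalized counts, and at 0 in 4 of 10 libraries, so its share could not be followed at this depth.

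Trbv17 and Trav5-1 stood out in a single library. Trbv17 held 1340 normalized counts in CSF1Ri library 1, next to 304 in CSF1Ri library 6, 150, 299 and 223 in Control, 217, 374 and 223 in CD40, and 417 and 184 in CSF1Ri+CD40. Its share was 11.8% of Trbv in that library and at most 3.96% elsewhere. The log2 fold change of CSF1Ri over Control was 1.56 ± 0.62 (adjusted p = 1), and without CSF1Ri library 1 it was 0.49. Trav5-1 held 324 in the same library and 81 in CSF1Ri library 6, 9, 64 and 76 in Control, 83, 59 and 110 in CD40, and 131 and 80 in CSF1Ri+CD40. Its share of Trav was 6.17% in CSF1Ri library 1 and at most 3.22% elsewhere.

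A wider look at single libraries covered the 51 Trav and Trbv members with a mean of at least 50 normalized counts. In 13 of them the highest share was at least 2 times the median share over the libraries. Of these 13, 4 had their highest share in CSF1Ri library 1 (Trbv17, Trav5-1, Trav14n-3 and Trav14d-3-dv8), 3 in CSF1Ri+CD40 library 1 (Trav19, Trbv12-1 and Trav12-1), 2 in CSF1Ri+CD40 library 3 (Trbv14 and Trbv26), and 1 each in Control libraries 1 (Trbv30) and 3 (Trav7-1), CSF1Ri library 6 (Trav14-1) and CD40 library 3 (Trav17). None had it in Control library 2 or CD40 libraries 1 and 2. Trbv14 was the most extreme at 4.60 times its median, followed by Trbv30 at 4.14 and Trbv17 at 3.83. Trbv30 held 116, 33 and 104 normalized counts in Control and 23 to 102 in the treated libraries.

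**Figure D4:**
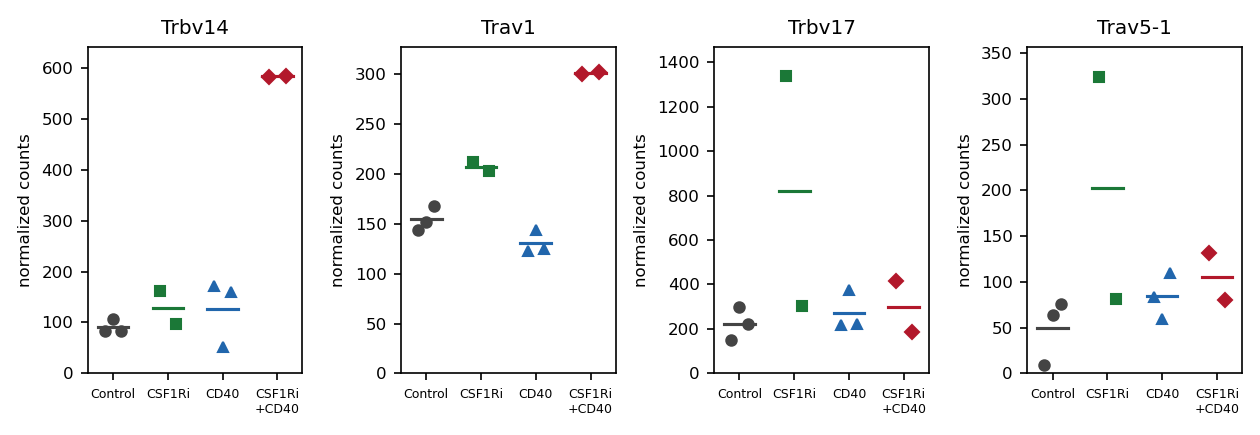
Normalized counts of Trbv14, Trav1, Trbv17 and Trav5-1 by group, with a point per library and a line at each group mean. For Trbv14 and Trav1 both CSF1Ri+CD40 libraries (583 and 584, and 300 and 303) lie above all others, while for Trbv17 and Trav5-1 CSF1Ri library 1 alone is high (1340 and 324).

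Alpha variable use was spread over more segments. Trav3-3 held 353, 466 and 360 normalized counts in Control, 551 and 575 in CSF1Ri, 620, 1050 and 331 in CD40, and 649 and 728 in CSF1Ri+CD40. Trav5-4 held 254, 358 and 283 in Control, 511 and 503 in CSF1Ri, 594, 771 and 283 in CD40, and 440 and 425 in CSF1Ri+CD40. In both, all treated libraries except CD40 library 3 lay above all Control libraries. Their mean shares per kilobase were 10.3% and 9.77%, followed by Trav7-4 at 4.57%, Trav1 at 3.99% and Trav7-3 at 3.55%. The Trav7-4 value depends on read assignment, since 39.8% of its 75-base stretches are unique, and Trav7d-4, with a share of 3.27%, has 36.6%. In all, 11 of the 61 Trav members had under 50% unique stretches. The alpha locus of the mouse reference carries duplicated blocks, whose copies are marked d and n in their names. Among the 61 are 7 segments with dv in the name, which can join to alpha or delta segments.

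The largest variation among Trav members with a mean of at least 50 was in Trav19 (coefficient of variation 85.5%), Trav5-1 (83.0%) and Trav12-1 (59.7%). Trav19 was highest, at 202 normalized counts, in CSF1Ri+CD40 library 1, whose partner library held 16. The smallest was in Trav8d-1 (20.8%), Trav15-1-dv6-1 (27.2%) and Trav7d-4 (29.5%). For CD40 over Control the smallest p among members belonged to Trbv15 (log2 fold change 0.88 ± 0.34 SE, adjusted p = 0.743), Trav3-1 (1.24 ± 0.49, adjusted p = 0.768) and Trbv1 (0.68 ± 0.32, adjusted p = 0.773). Trbv15 held 141, 291 and 175 in Control and 309 to 372 in all 7 treated libraries, so no treated library overlapped Control. Trav3-1 held 47, 88 and 44 in Control and 112 to 184 in the treated libraries, likewise without overlap. Trbv12-2 had the smallest p of the interaction, at -1.68 ± 0.60 (adjusted p = 0.991), with 238, 477 and 446 in Control, 570 and 1058 in CSF1Ri, 706, 725 and 439 in CD40, and 492 and 322 in CSF1Ri+CD40.

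Segments of invariant natural killer T cells were at or near 0 on the variable side. These cells join Trav11 to Traj18 and recognise lipids on CD1d. Trav11 and Trav11d were listed at 0 in all 10 libraries, but none of their 75-base stretches is unique, so reads from them may not have been assigned to either. Together with the copy Trav11n they came to 0% to 0.089% of Trav per kilobase. The highest value was in Control library 3. No difference between groups passed for this share (exact permutation p = 0.4159, adjusted p = 0.8595). Traj18 held 38, 18 and 36 normalized counts in Control, 29 and 12 in CSF1Ri, 9, 42 and 82 in CD40, and 11 and 6 in CSF1Ri+CD40. The combination was below Control in both libraries, at a log2 fold change of -1.72 ± 1.11 (SE; adjusted p = 0.925), with 9 in CD40 library 1 between its libraries. As a share of Traj it ran from 1.89% to 19.2% and no difference between groups passed (exact permutation p = 0.8298, adjusted p = 0.9528).

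The joining segments, which are short, summed to fewer counts than the variable segments, and the alpha sum varied more than the beta sum. The 13 Trbj members summed to 383 to 547 normalized counts, with 488, 455 and 468 in Control, 509 and 521 in CSF1Ri, 457, 487 and 547 in CD40, and 514 and 383 in CSF1Ri+CD40. The 19 Traj members summed to 274, 130 and 490 in Control, 286 and 138 in CSF1Ri, 137, 202 and 1023 in CD40, and 88 and 265 in CSF1Ri+CD40. CD40 library 3 thus held more than any other, and 12 of the 19 Traj members had their highest value there. No difference between groups passed for either sum (exact permutation p = 0.827 for Traj and 0.5298 for Trbj; adjusted p = 0.9528 and 0.8738).

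The Traj sum followed Malat1, a long noncoding RNA that is kept in the nucleus. Malat1 was 45775, 14056 and 59286 in Control, 34141 and 21997 in CSF1Ri, 25034, 35311 and 95260 in CD40, and 20146 and 48947 in CSF1Ri+CD40. On the log2 scale over the 10 libraries, Pearson's r with the Traj sum was 0.93 (permutation p = 0.00021, adjusted p = 0.0013 over 6 sums compared with Malat1) and Spearman's rho was 0.89 (p = 0.00099, adjusted p = 0.0059). Without the 2 libraries farthest from the median of Malat1, CD40 library 3 and Control library 2, r was 0.94 over the other 8. The same r was 0.07 for the Trbj sum, -0.45 for Trav, -0.62 for Trbv, -0.56 for Trac and -0.71 for summed Trbc1 and Trbc2, and none of these passed (adjusted permutation p from 0.067 to 0.85). The relation was looked for after the values had been seen, and the adjustment over 6 sums does not cover the choice of Malat1. The relation was also computed on departures from the group means. This used the same 10 libraries and values, so it is not a separate test. Within groups r was 0.95 for the Traj sum, and the order of the libraries by Malat1 and by the Traj sum was the same in all 4 groups. The same r was 0.07 for the Trbj sum, -0.70 for Trav, -0.86 for Trbv, -0.72 for Trac and -0.84 for summed Trbc1 and Trbc2.

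**Figure D5:**
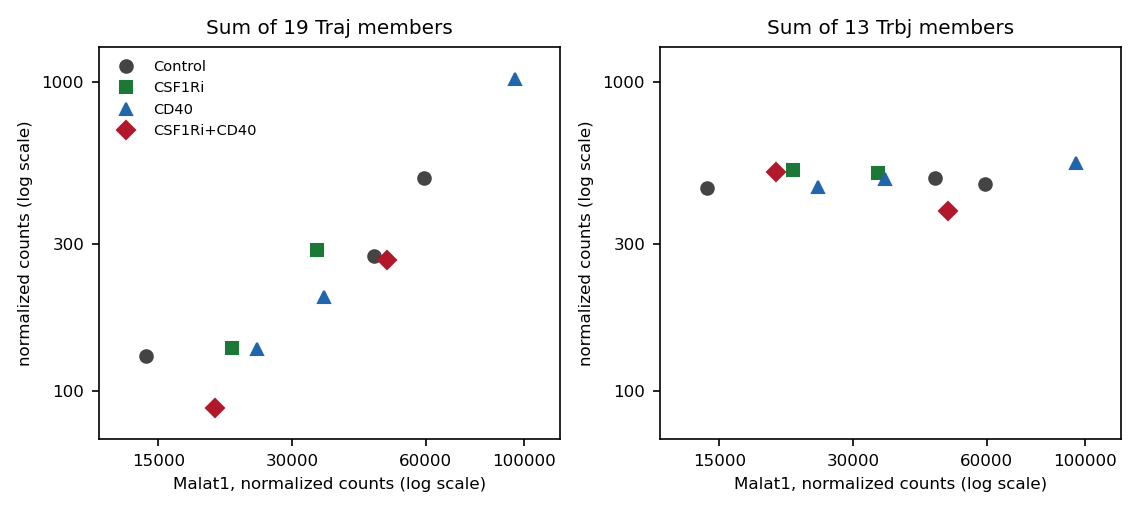
Summed Traj members and summed Trbj members against Malat1 in the 10 libraries, in normalized counts with log scales on both axes; colour and shape give the group. The Traj sum runs from 88 to 1023 along Malat1 (r = 0.93) while the Trbj sum stays between 383 and 547 (r = 0.07).

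Among Trbj members the mean share per kilobase was highest for Trbj2-6 (19.6%), Trbj2-1 (17.8%) and Trbj2-7 (14.1%), of which the first is annotated as a pseudogene and holds no match to the motif shown above. A share of counts over joining segments is therefore not by itself a measure of their use in receptors. Trbj2-6 held 98, 99 and 67 normalized counts in Control, 88 and 84 in CSF1Ri, 80, 122 and 82 in CD40, and 101 and 96 in CSF1Ri+CD40. Trbj2-1 held 73, 86 and 61 in Control, 90 and 123 in CSF1Ri, 124, 98 and 46 in CD40, and 104 and 65 in CSF1Ri+CD40. The Trbj1 cluster, which lies upstream of Trbc1, made up 40.1% ± 3.44 of Trbj in Control (SD, n = 3), 33.5% ± 3.89 in CSF1Ri (n = 2), 41.0% ± 13.8 in CD40 (n = 3) and 27.5% ± 12.3 in CSF1Ri+CD40 (n = 2), with an exact permutation p of 0.5356 (adjusted p = 0.8738). Trbj2-2 was below the Control range in all CD40 libraries, with 14, 20 and 27 in Control and 5, 9 and 6 in CD40, at a log2 fold change of -1.46 ± 0.92 (adjusted p = 0.821).

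By mean share per kilobase the leading Traj members were Traj27 (12.4%), Traj8 (10.9%), which is annotated as a pseudogene, Traj58 (10.5%), Traj18 (9.30%), Traj9 (8.69%) and Traj19 (8.31%). No Traj member reached 10 in every library, and 11 of 19 were listed at 0 in at least 1. Along the locus, members numbered 3 of the 20 rows farthest from Trac, 7 of the middle 20 and 9 of the 20 next to Trac. Over the 60 rows the level per kilobase had a Spearman's rho of 0.35 with the order toward Trac, as a description across rows that share libraries. Traj28 had the smallest p of a Traj member for CSF1Ri+CD40 over Control (log2 fold change -4.29 ± 1.51 SE, adjusted p = 0.849). It held 39, 12 and 40 in Control, 19 and 0 in CSF1Ri, 7, 7 and 45 in CD40, and 0 and 1 in CSF1Ri+CD40, so the low values of the combination are at the floor of the counting. Traj19, with 11, 37 and 131 in CD40 and 0 and 10 in CSF1Ri+CD40, gave -3.56 ± 1.56 between these groups (adjusted p = 0.966).

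How evenly segments were used was summarised by the effective number, the exponential of the Shannon entropy of the shares, which equals the number of segments if all are used alike. It was 31.6 to 40.4 for Trav, 9.25 to 15.04 for Traj, 13.7 to 15.3 for Trbv and 8.12 to 11.4 for Trbj over the libraries. For Trbv the mean was 14.9 ± 0.11 in Control (SD, n = 3), 14.5 ± 0.08 in CSF1Ri (n = 2), 14.3 ± 0.67 in CD40 (n = 3) and 15.2 ± 0.10 in CSF1Ri+CD40 (n = 2), with an exact permutation p of 0.1356 (adjusted p = 0.7004). CD40 library 3, at 15.05, was away from the other 2 CD40 libraries at 13.7 and 14.1, and without it the exact p was 0.001587 and the adjusted p 0.0492. The 3 other classes had adjusted p from 0.8595 to 0.9705.

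The makeup of use was compared between and within groups. The Bray-Curtis distance is 0 for 2 libraries with the same shares and 1 for libraries with no segment in common. For Trbv it averaged 0.135 over the 8 pairs of libraries within a group and 0.151 over the 37 pairs between groups (upper-tail exact permutation p = 0.05619, adjusted p = 0.4271). It was 0.191 within and 0.195 between for Trav, 0.380 and 0.390 for Traj, and 0.188 and 0.178 for Trbj, none of which passed (adjusted p from 0.7805 to 0.9528).

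The other genes of the receptor pathway were read beside the members. In the list of the receptor complex and its signaling, 15 of 18 genes were tested and 0 passed in any contrast. The shares of all genes called were 0.00636% for CSF1Ri and for CD40 over Control and 0% otherwise. At an unadjusted limma p under 0.05 the list held 4, 0 and 3 genes for CSF1Ri, CD40 and CSF1Ri+CD40 over Control. The shares of all genes under it were 4.08%, 6.39% and 5.4%. The medians of the 15 genes over Control were 0.37, 0.23 and 0.25. Ptcra, which encodes the alpha chain stand-in of thymic precursors, and Rag1 and Rag2, the recombinase that joins segments, were listed at 0 in all 10 libraries. Dntt, from the same list, held 45 in Control library 2, 25 in CSF1Ri library 1 and 0 in every other library. The summed Cd3d, Cd3e and Cd3g, the signaling chains of the receptor, ran from 39027 to 50003 in Control, 55161 to 63020 in CSF1Ri, 42048 to 68058 in CD40 and 58541 to 58643 in CSF1Ri+CD40. Cd8a, the coreceptor of cytotoxic T cells, held 1911, 1691 and 1475 in Control and 3223 and 3685 in CSF1Ri, 3949, 2744 and 1051 in CD40, and 3785 and 4947 in CSF1Ri+CD40.

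Among gamma delta chain genes, 18 of 23 were tested and 0 passed, with medians of -0.04, -0.52 and -0.57 over Control for CSF1Ri, CD40 and CSF1Ri+CD40. At an unadjusted limma p under 0.05 they numbered 1, 4 and 6 of the 18 in these contrasts. The shares of all genes under it were 4.08%, 6.39% and 5.4%. Trdc held 6354, 5633 and 7929 in Control, 3686 and 7133 in CSF1Ri, 3527, 2450 and 5940 in CD40, and 3061 and 3123 in CSF1Ri+CD40, with both libraries of the combination below Control. All 8 genes listed as partners of invariant T cells were tested and 0 passed. Mr1, which presents to mucosal-associated invariant T cells, held 36 to 408 normalized counts and Zbtb16, their lineage factor, 0 to 76.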

How the data were processed

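Bulk RNA from tumor T cells was sequenced in 10 libraries. Per the labels' protocols, libraries came from 50 ng of RNA by the SMARTer ultra low input method, which keeps no strand, and were read from both ends over 75 bases. The tools named in the submitters' processing notes are STAR, HTSeq and DESeq2, without versions, and the build is GRCm38 (mm10). The deposited values are scores: counts that the authors divided by size factors and rounded, with 11538244 to 14024851 per library. Raw depth is unknown. All per-sample columns were used.

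Rows with at least 10 in at least 2 libraries (15716) were fitted in limma 3.58.1 (R 4.3.3) on log2(value + 1) with 4 groups and a variance trend, and fold changes are on that scale. Adjusted p are Benjamini-Hochberg over all genes of a contrast. Library-level values had exact permutation tests of the F ratio, which has no direction, and were adjusted over 31 values. For distances the statistic was the mean between groups minus the mean within groups, tested in the upper tail only. The limma fit and the permutation test were tried on simulated data. For limma, changes were planted in the CD40 group and read in CD40 over Control, with 3 libraries on each side. There limma found 14.9% of changes planted at a log2 of 1, 66.2% at 2 and 97.5% at 4. Detection in contrasts with the groups of 2 libraries was not simulated. The changes were planted only in better-read genes, with means above those of all joining members. Positions, exon lengths, transcript sequences and unique 75-base stretches came from GENCODE vM21 (GRCm38). The annotation release of the authors is not given in the sources used here, so lengths may differ. The main fit did not pair libraries by the numbers in their titles. Those numbers were used in an alternative with a replicate block and in correlations of same-numbered libraries. Named genes were the constant regions, invariant segments, the highest means (5 per class, 3 for Trbj), the 3 smallest p per contrast, and the 3 largest and smallest coefficients of variation per class at a mean of at least 50. Members named for a single high library, and others set beside them, were chosen after their values were seen. The members and lists were chosen with earlier results of these data known. Other steps ran in Python 3.11.15 (scipy 1.17.1, pandas 2.3.3, numpy 2.4.6, matplotlib 3.10.9). A part of the strain's genotype, shared by all groups, is not reported here.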

Additional observations from a re-analysis of the deposited data

How the results depend on the processing

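The number of members that passed stayed at 0 in all 157 alternative results, which were 19 or 20 alternatives for each of the 8 contrasts. The alternatives changed the pseudocount (0.5 or 4), the filter, the scaling, the variance trend, the groups in the fit, the pairing or the libraries. Members at an unadjusted limma p under 0.05 were counted in the alternatives that kept at least 2 libraries in every group. They numbered 0 to 8 for CSF1Ri, 0 to 11 for CD40 and 3 to 13 for CSF1Ri+CD40 over Control. The count over all genes moved too. It was 2039 of 15441 beside the 11 members (without CD40 library 3), in place of 1005 of 15716. Beside the 13 members (replicate block) it was 1221 of 15716, in place of 849. Beside the 0 for CSF1Ri (equal Cd3) it was 1054, in place of 641. The smallest adjusted p of a member in any alternative was 0.0987, for Trbv14 in CSF1Ri+CD40 over Control without CD40 libraries 2 and 3.

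Same-numbered libraries of different groups, CSF1Ri left out, deviated from their group means with correlations of -0.11 to 0.09. Differently numbered libraries were not set beside them, so whether same-numbered libraries shared handling was not tested. With the replicate block, 0 members passed in any contrast, and the log2 fold change of Trbc1 in CSF1Ri+CD40 over Control became 0.109 in place of -0.0468.

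Of 649 alternative values of the named members' fold changes, 11 changed sign, all of constant regions. With values scaled to equal Cd3 transcripts these were Trac at -0.104 for CSF1Ri, -0.0132 for CD40 and -0.0201 for CSF1Ri+CD40, Trbc1 at -0.0788 for CSF1Ri and -0.051 for CD40, and Trbc2 at -0.219, -0.154 and -0.236 for the 3 treatments over Control. Scaling to equal Cd3 moved the median of all genes by -0.39, -0.28 and -0.38 in these contrasts. With each library left out in turn, Trbc1 ran from -0.138 to 0.12 for CSF1Ri+CD40, the latter without Control library 2, and Trbc2 from -0.01149 without CD40 library 2 to 0.312 without CD40 library 3 for CD40. The cause was not tested.

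Of 465 alternative library-level tests, 464 stayed on the same side of the threshold. The exception was the effective number of Trbv segments, whose adjusted p ran from 0.0492 without CD40 library 3 to 0.994 with each library left out in turn. Shares not divided by exon length, an alternative added after seeing the data, passed in no test. Intervals for counting error cannot be given without the raw depth.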
